A study of Mus musculus with 100 samples.

Results

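Acetylated lysine 27 of histone H3 (H3K27ac) marks promoters and enhancers that are in use. Acetyltransferases such as p300 write the mark, and deacetylases such as HDAC3, which works inside the NCoR and SMRT corepressor complexes, remove it. The comparison described here asks what H3K27ac looked like in activated macrophages when HDAC3 was inhibited. Bone marrow-derived macrophages (BMDMs) of C57BL/6 mice were stimulated for 6 h with KLA (Kdo2 lipid A), a lipid A agonist of the receptor TLR4, in the presence of either the HDAC3 inhibitor RGFP966 or its solvent DMSO. The members are the 4 ChIP-seq libraries H3K27ac_WT_RGFP966_KLA and H3K27ac_WT_DMSO_KLA, 2 of each, out of 100 libraries in the series. They were chosen by their labels, and 2 H3K27ac_WT_DMSO_Veh libraries in the same table give the level without KLA. For the response to KLA in cells that never met the inhibitor, 2 vehicle and 2 KLA libraries each of H3K27ac_Pgc1b_flox (PGC1b flox/flox) and H3K27ac_WT (NCoR flox/flox), both without Cre in the label, were used.

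All 6 libraries came from wild-type cells, the inhibitor or DMSO was added when serum starvation began, and RGFP966 without KLA was not analysed here. The effect of the inhibitor on its own therefore cannot be told apart from its effect on the response to KLA. Tags were counted in 29767 windows of 1000 bp (mm10) placed on chromatin that was open in vehicle-treated cells, of which 25045 had at least 16 tags in at least 1 library and were tested. Of those tested, 9836 lay within 2 kb of a transcription start site (TSS) and are called proximal, and 15209 lay farther away and are called distal. Levels are given as tags per 10 M tags of the library, and differences as log2 of RGFP966 KLA over DMSO KLA with their standard error (SE). A region is called higher or lower when it differed more than 2-fold at an adjusted p under 0.05 by edgeR's quasi-likelihood test. The sources name no spike-in, so every level is relative to the library it came from.

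Libraries held 11.5 to 15.4 M tags, and replicates correlated across regions at r = 0.964 to 0.9745. Of the macrophage markers, Csf1r, Adgre1, Itgam, Cd68, Lyz2 and Spi1 each carried 273 to 843 tags per 10 M at the promoter in every library. The T cell marker Cd3e, the neutrophil marker Ly6g and the fibroblast marker Col1a1 had no tested region, and the 1 region nearest to the epithelial gene Epcam held at most 18.3.

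With library totals, promoters and distal regions went in opposite directions with RGFP966. Among distal regions, 6104 of 15209 (40.1%) were higher and 104 (0.684%) were lower. Among promoters, counting 1 region per gene, 1893 of 7762 (24.4%) were lower and 451 (5.81%) were higher. Over all tested regions 9137 (36.5%) were called, 6749 (26.9%) higher and 2388 (9.53%) lower. The median log2 difference was -0.57 at proximal and 0.85 at distal regions.

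The split between higher and lower depends on the scale. The median over all tested regions was 0.39 with library totals, and centring that median to 0 gave 3679 regions higher (14.7%) and 5062 lower (20.2%). The opposite signs of the proximal and distal medians remained, at -0.95 and 0.47. After centring, 3785 promoters were lower (48.8%) and 3320 distal regions higher (21.8%). All 3679 regions that were higher after centring were also higher by library totals, and all 2388 that were lower by totals were also lower after centring. This nesting largely follows from centring, which takes 1 constant off every difference, and is no separate support. In both RGFP966 libraries, 12790 regions (51.1%) lay above both DMSO KLA libraries and 7109 (28.4%) below both.

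DMSO KLA replicate 1 weighed most on the count of lower regions: without it 1477 regions were lower in place of 2388, and 1155 promoters (14.9%) in place of 1893. Under the main setting and all 13 alternatives of scaling, test, filter and left-out library, 966 promoters (12.4%) were lower and 2939 distal regions (19.3%) higher.

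The sequences under the regions with the smallest p-values are shown for both ends of this range. Promoter sequences below are the 200 bases before the annotated TSS, and distal sequences are the 300 bases in the middle of the region, all from RefSeq's GRCm38.p6 (the mm10 assembly) and all outside annotated exons. Capitals mark matches, on either strand, to GAGGAAGT (ETS/PU.1 core), CCGGAAGT (ETS promoter type), TGACTCA (AP-1), TGACGTCA (CRE), GGGCGG (SP/KLF), GCATGCGC (NRF1), AAGATGGC (YY1), CCAATCNG (NFY), CACGTG (E-box) and TGTGGT (RUNX). Of 32851 RefSeq promoters, 31.0% held SP/KLF, 11.2% RUNX, 5.5% NFY, 5.26% the E-box, 3.66% AP-1, 2.68% the ETS promoter type, 2.1% NRF1, 2.06% the ETS/PU.1 core, 1.47% CRE and 1.18% YY1 in the same 200 bases. A match is a run of letters and not a measured binding site.

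Of the 10 lower promoters with the smallest p-values, the 6 whose window holds no annotated exon follow: Lztfl1 at chr9:123717626-123717825 on the minus strand, Adrm1 at chr2:180171388-180171587 on the plus strand, Slc35e1 at chr8:72492615-72492814 on the minus strand, Thg1l at chr11:45955504-45955703 on the minus strand, Aspscr1 at chr11:120672773-120672972 on the plus strand and Dbnl at chr11:5788283-5788482 on the plus strand. They held 14, 29, 32, 6, 11 and 18 CpG dinucleotides.
Lztfl1: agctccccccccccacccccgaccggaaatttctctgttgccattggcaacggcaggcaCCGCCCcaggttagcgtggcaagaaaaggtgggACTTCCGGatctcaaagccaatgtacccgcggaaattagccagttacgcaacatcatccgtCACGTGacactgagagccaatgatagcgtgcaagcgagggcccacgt
Adrm1: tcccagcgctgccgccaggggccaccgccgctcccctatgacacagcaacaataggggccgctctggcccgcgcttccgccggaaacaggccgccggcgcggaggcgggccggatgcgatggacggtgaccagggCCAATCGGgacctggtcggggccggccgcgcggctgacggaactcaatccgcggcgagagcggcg
Slc35e1: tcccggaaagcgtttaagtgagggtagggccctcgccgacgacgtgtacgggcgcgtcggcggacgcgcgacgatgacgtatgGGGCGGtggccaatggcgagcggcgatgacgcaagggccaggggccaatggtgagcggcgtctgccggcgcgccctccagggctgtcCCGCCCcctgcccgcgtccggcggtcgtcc
Thg1l: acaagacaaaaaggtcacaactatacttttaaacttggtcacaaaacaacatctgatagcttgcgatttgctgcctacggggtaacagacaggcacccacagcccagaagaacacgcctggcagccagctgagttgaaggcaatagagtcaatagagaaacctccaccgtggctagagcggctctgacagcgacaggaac
Aspscr1: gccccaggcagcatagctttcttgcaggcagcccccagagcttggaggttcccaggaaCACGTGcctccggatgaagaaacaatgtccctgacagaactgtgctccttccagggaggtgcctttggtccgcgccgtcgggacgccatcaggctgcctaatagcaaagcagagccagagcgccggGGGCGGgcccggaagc
Dbnl: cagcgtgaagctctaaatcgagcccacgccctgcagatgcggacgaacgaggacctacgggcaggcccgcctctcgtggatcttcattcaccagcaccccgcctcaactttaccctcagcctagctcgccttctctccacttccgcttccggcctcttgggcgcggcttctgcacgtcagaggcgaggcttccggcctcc

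As examples of the other direction, the promoters of S100a4 at chr3:90603570-90603769 and Havcr2 at chr11:46454731-46454930, both on the plus strand, were higher with RGFP966 and held 1 and 2 CpG.
S100a4: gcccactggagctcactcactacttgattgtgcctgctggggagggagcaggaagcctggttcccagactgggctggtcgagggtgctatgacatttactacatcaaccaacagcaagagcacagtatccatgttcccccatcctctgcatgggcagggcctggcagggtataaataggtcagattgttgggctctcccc
Havcr2: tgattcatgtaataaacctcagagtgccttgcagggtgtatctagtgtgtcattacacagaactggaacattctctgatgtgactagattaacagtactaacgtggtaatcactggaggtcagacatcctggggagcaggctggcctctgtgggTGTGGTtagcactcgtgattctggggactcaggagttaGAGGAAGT

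The middle of 4 of the 10 distal regions with the smallest p-values, chosen as examples with their values known, is given on the plus strand for the regions nearest to Cd300a at chr11:114903345-114903644, Zfp572 at chr15:59202417-59202716, Ppp1r2 at chr16:31290993-31291292 and Cd1d1 at chr3:87017722-87018021. They held 2, 7, 2 and 2 CpG, and each held a marked match. Of the regions not shown, Mmp13 held no match, and 1700027F06Rik, Scgb1a1 and Cdc42ep3 held only RUNX. Tle4 held AP-1 and Qpct the ETS/PU.1 core. Of all distal regions tested, 29.6% held RUNX, 22.1% AP-1 and 17.2% the ETS/PU.1 core in the middle 300 bases.
Cd300a: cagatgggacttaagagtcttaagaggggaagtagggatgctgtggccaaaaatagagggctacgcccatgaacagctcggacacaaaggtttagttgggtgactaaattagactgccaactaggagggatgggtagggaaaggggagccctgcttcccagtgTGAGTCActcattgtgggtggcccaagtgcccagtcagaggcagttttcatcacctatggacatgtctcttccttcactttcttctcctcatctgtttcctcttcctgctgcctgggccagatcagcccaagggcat
Zfp572: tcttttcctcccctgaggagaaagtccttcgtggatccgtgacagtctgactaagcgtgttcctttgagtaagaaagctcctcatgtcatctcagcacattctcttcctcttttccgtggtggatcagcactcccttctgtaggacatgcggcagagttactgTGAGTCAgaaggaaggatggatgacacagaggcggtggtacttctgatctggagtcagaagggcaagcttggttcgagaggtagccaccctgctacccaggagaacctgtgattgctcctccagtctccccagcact
Ppp1r2: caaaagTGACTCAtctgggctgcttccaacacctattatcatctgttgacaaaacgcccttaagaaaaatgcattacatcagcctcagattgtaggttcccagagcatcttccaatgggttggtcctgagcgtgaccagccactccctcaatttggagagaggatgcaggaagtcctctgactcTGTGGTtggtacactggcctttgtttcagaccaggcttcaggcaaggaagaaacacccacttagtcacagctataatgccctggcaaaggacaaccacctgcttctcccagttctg
Cd1d1: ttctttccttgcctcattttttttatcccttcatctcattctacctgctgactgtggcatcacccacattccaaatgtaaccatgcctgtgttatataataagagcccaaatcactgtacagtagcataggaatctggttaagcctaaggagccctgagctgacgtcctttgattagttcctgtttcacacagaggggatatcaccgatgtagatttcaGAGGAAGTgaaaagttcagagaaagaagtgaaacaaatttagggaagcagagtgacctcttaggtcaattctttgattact

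At the level of whole libraries, a smaller share of tags was proximal and a larger share distal with RGFP966. Proximal regions held 14% and 11.2% of all tags in the DMSO KLA libraries but 9.37% and 8.06% in the RGFP966 KLA libraries. Distal regions held 13.9% and 11.7% with DMSO KLA and 18.1% and 15.5% with RGFP966 KLA. Neither share overlapped between the groups. Of the tags inside regions, 50.2% and 49.0% were proximal with DMSO KLA and 34.1% and 34.2% with RGFP966 KLA, which an exact two-sided permutation test over the 4 libraries gives p = 0.333, the smallest it can give. Cells without KLA held 43.3% in both libraries, between those values.

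**Figure D1:**
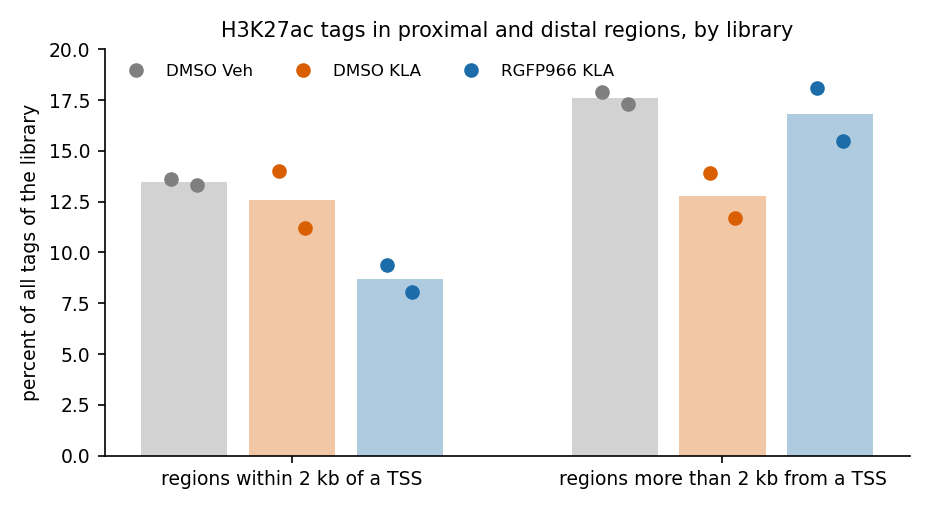
Percent of each library's tags that fell in regions within 2 kb of a TSS and in regions farther away. Dots are libraries, bars the mean of 2, and the RGFP966 KLA libraries (9.37% and 8.06% proximal) sit under all others at proximal regions.

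The change of sign fell near 1 kb from the TSS. The median difference was -0.67 within 0.25 kb, -0.66 from there to 0.5 kb, -0.19 to 1 kb and 0.42 from 1 to 2 kb. Beyond that it ran from 0.71 at 2 to 5 kb to 0.97 beyond 100 kb. By annotation, promoters and 5' UTRs had medians of -0.64 and -0.45, exons 0.27 (-0.09 after centring), introns 0.73 and intergenic regions 0.92.

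**Figure D2:**
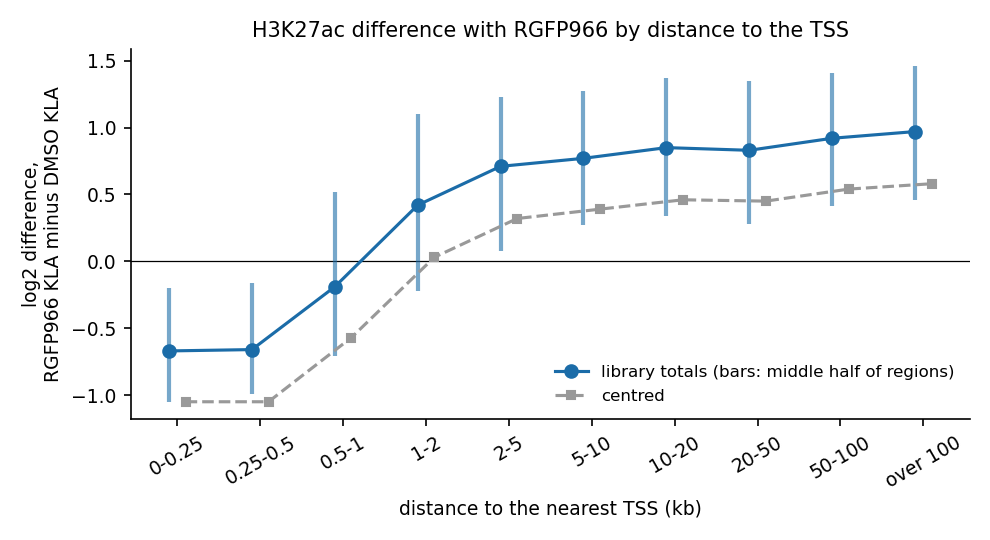
Median log2 difference in H3K27ac, RGFP966 KLA minus DMSO KLA, by distance to the nearest TSS in kb. Circles use library totals with bars for the interquartile range, squares are centred values, and both series cross 0 between 0.5 and 2 kb (medians -0.19 and 0.42 by totals).

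Of 869 promoters in any class of basic cell functions, 287 (33.0%) were lower with RGFP966 and 11 (1.27%) higher, with a median of -0.76. Over all promoters 24.4% were lower and 5.81% higher, with a median of -0.6. After centring, 519 of the 869 (59.7%) were lower and 3 (0.345%) higher, beside 48.8% and 3.16% of all promoters. The 10 lower promoters with the smallest p-values were those of Lztfl1, Adrm1, Acsl1, Slc35e1, Mfsd14a, Thg1l, Cnot3, Taok3, Aspscr1 and Dbnl.

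Lztfl1 encodes a regulator of the BBSome, which traffics proteins of the cilium. Its promoter at chr9:123717072-123718072 carried 161 and 138 tags per 10 M with DMSO KLA, 22.4 and 18.3 with RGFP966 KLA and 33.2 and 33.1 without KLA. The log2 difference was -2.87 (SE 0.27, adjusted p = 1.47e-22), and the level with RGFP966 lay under that of unstimulated cells. Adrm1, a ubiquitin receptor of the proteasome, had 161 and 141 tags with DMSO KLA and 31.6 and 23.7 with RGFP966 KLA, a difference of -2.45 (SE 0.26, adjusted p = 2.08e-18). Acsl1 activates long-chain fatty acids with coenzyme A. Its promoter held 318 and 270 tags with DMSO KLA, 75 and 70.5 with RGFP966 KLA and 83.9 and 61.9 without KLA, so the RGFP966 libraries lay within the range of the vehicle libraries (-2.02, SE 0.22, adjusted p = 5.43e-17). Slc35e1, of a family of nucleotide-sugar transporters, fell from 193 and 160 to 37.5 and 37.9 tags (-2.23, SE 0.25, adjusted p = 6.31e-17).

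At Cnot3 and Taok3 the DMSO KLA and vehicle libraries held similar levels and the RGFP966 libraries lay below both. At Cnot3, a subunit of the CCR4-NOT deadenylase, the vehicle libraries held 171 and 218 tags and the DMSO KLA libraries 183 and 151, whereas RGFP966 KLA left 34.2 and 42.7. The difference to DMSO KLA was -2.12 (SE 0.24, adjusted p = 1.00e-15) and the difference to vehicle -2.34. Taok3, a kinase of the Ste20 group, went the same way, with 177 and 184 tags without KLA, 243 and 184 with DMSO KLA and 57.9 and 49.5 with RGFP966 KLA. Thg1l and Dbnl had more tags with DMSO KLA than without KLA. Thg1l, which adds a guanine to histidine tRNA, had 311 and 230 tags with DMSO KLA and 84.3 and 55.5 with RGFP966 KLA. Dbnl, an actin-binding adaptor, was the strongest promoter of the 10, and dropped from 783 and 717 to 267 and 221 tags, next to 287 and 289 without KLA.

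**Figure D3:**
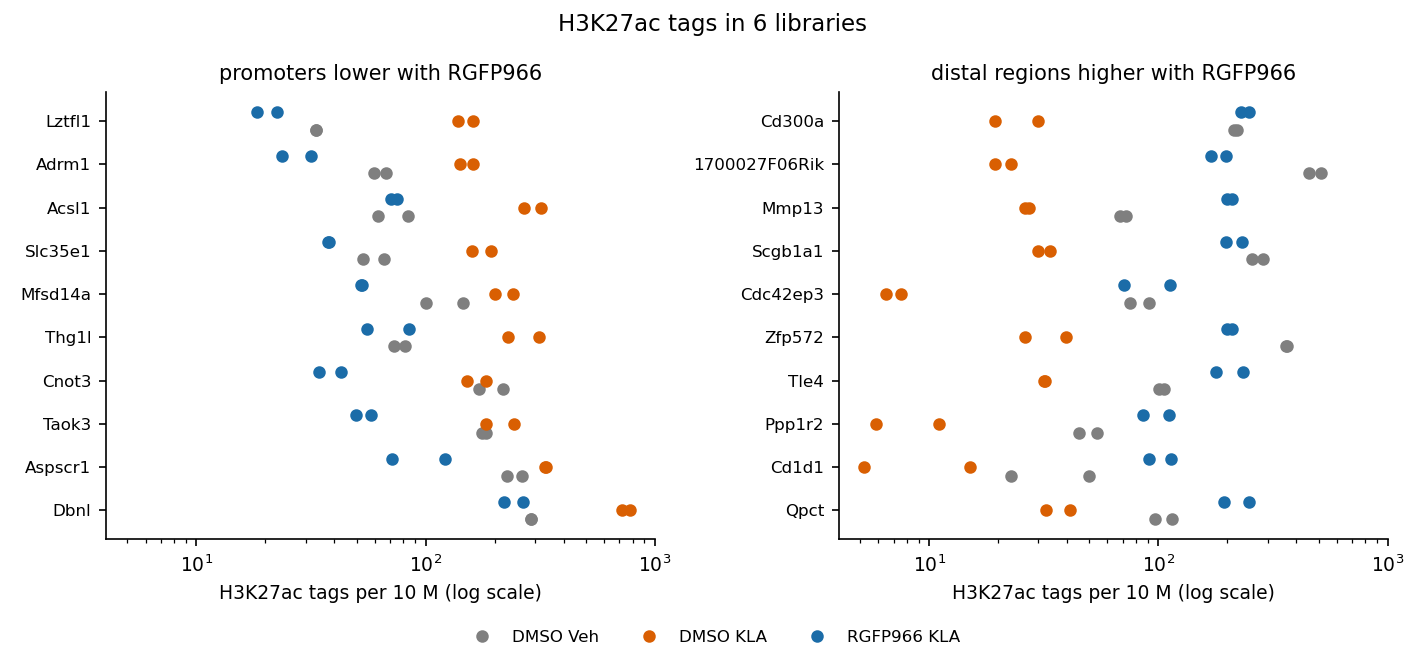
H3K27ac tags per 10 M (log axis) in each of 6 libraries at the 10 lower promoters and the 10 higher distal regions with the smallest p-values. At Cd300a the RGFP966 KLA libraries (249 and 229) sit with the vehicle libraries and DMSO KLA lies far to the left (29.8 and 19.4).

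Classes of genes were compared by the same count. In each class the number of promoters lower is to be read beside the 24.4% of all promoters, or the 48.8% after centring. Proteasome subunits, which degrade ubiquitinated proteins, had 22 of 31 promoters lower (28 centred) with a median log2 difference of -1.13, and genes of cholesterol synthesis and uptake 12 of 18 (16 centred) with a median of -1.14. All promoters together had a median of -0.60. DNA replication and repair followed with 26 of 51 lower and a median of -1.02, and oxidative phosphorylation, the respiratory chain of mitochondria, with 23 of 48 and -0.97. None of these classes had more than 1 promoter higher.

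The proteasome class held the subunits named Psm and not Adrm1, and its 2 members with the smallest p-values were Psmd7 and Psmb2. Psmd7, of the regulatory lid, held 143 and 125 tags with DMSO KLA and 42.8 and 39.3 with RGFP966 KLA (-1.71, SE 0.25, adjusted p = 1.45e-10). Psmb2, of the core particle, held 142 and 138 against 51.3 and 43.4. In the cholesterol class, Insig1, which retains regulators of that pathway in the endoplasmic reticulum, fell from 418 and 342 to 166 and 129 tags (-1.37, SE 0.20, adjusted p = 3.27e-10). It lay above vehicle with DMSO KLA and below it with RGFP966 KLA, since 229 and 219 tags were found without KLA.

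The replicative helicase subunit Mcm7 held 80.9 and 70.7 tags with DMSO KLA against 146 and 147 without KLA, and 18.4 and 15.6 with RGFP966 KLA (-2.15, SE 0.29, adjusted p = 6.53e-12). Ndufb5, of complex I, had 122 and 108 tags with DMSO KLA and 27 and 25.1 with RGFP966 KLA. The cyclin Ccnf dropped from 81.6 and 59.7 to 18.4 and 15.6, and the mitochondrial deacetylase Sirt3 from 131 and 118 to 44.1 and 40.6. At all 4 genes the RGFP966 libraries were below vehicle as well.

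The machinery of RNA and protein synthesis lay below the median of all promoters too, with smaller margins. Spliceosome genes had 18 of 39 promoters lower and a median of -0.95, translation initiation factors 15 of 37 and -0.92, and aminoacyl-tRNA synthetases, which charge tRNAs, 11 of 24 and -0.89. For hnRNPs the count was 8 of 19 (18 centred) and for cytosolic ribosomal proteins 18 of 50 (33 centred) with a median of -0.82. Mitochondrial ribosomal proteins had 11 of 41 lower, near the background by library totals, and 30 of 41 (73.2%) after centring, with a median of -0.79. Rpl30, of the large ribosomal subunit, fell from 229 and 187 to 65.8 and 49.5 tags (-1.85, SE 0.23, adjusted p = 5.34e-14), and the splicing RNA-binding gene Hnrnpul1 from 284 and 250 to 75.7 and 85.4.

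Not every basic class was low. V-ATPase and lysosomal genes had 4 of 32 promoters lower and a median of -0.44, and the many Zfp zinc finger proteins 38 of 208 and -0.51, both under the background share. Core histones had 1 of 17 lower, a call that was lost without DMSO KLA replicate 1 or without either RGFP966 KLA library. Of 23 basic classes with at least 10 promoters, 18 had a median under that of all promoters, and their medians ran from -1.14 to -0.40.

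Leaving out DMSO KLA replicate 1 gave 13 of 31 for the proteasome, 10 of 18 for cholesterol, 17 of 51 for DNA replication and repair, 17 of 48 for oxidative phosphorylation, 8 of 39 for the spliceosome, 9 of 37 for initiation factors, 4 of 24 for aminoacyl-tRNA synthetases 9 of 50 for cytosolic ribosomal proteins and 10.2% for the Zfp genes, beside 14.9% of all promoters. Leaving out RGFP966 KLA replicate 2 gave 14 of 31 for the proteasome, 8 of 18 for cholesterol, 10 of 39 for the spliceosome, 8 of 37 for initiation factors and 7 of 24 for aminoacyl-tRNA synthetases, beside 19.0% of all promoters tested in that setting. Without DMSO KLA replicate 2 the shares of hnRNP promoters and of all promoters that were lower both rose, and the hnRNP share stayed larger. Without RGFP966 KLA replicate 1 the shares of lysosomal promoters and of all promoters both rose, and the lysosomal share stayed smaller. Lower in the main setting and all 13 alternatives were 12 proteasome, 7 cholesterol, 11 DNA replication and repair and 14 oxidative phosphorylation promoters.

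Immune and macrophage promoters were called in both directions. Of 371 promoters in any immune class, 46 (12.4%) were lower and 49 (13.2%) higher, with a median of -0.31, beside 24.4% lower and 5.81% higher over all promoters. After centring 121 (32.6%) were lower and 19 (5.12%) higher, with a median of -0.69, beside 48.8% and 3.16%, so the even split holds with library totals and not after centring. Only 3 of the 15 immune classes with at least 10 promoters had a median below that of all promoters: interferon-stimulated genes, NF-kB subunits and regulators, and AP-1 and ATF factors. CD300 and Fc receptors, a family of activating and inhibitory receptors, had 5 of 11 promoters higher and 0 lower with library totals (median 0.68). After centring 2 were higher and 3 lower, with a median of 0.29. In the TNF ligand and receptor superfamily 3 of 13 were higher and 2 lower (median 0.58). All 3 higher calls were lost after centring (2 lower, median 0.20), and both lower calls without DMSO KLA replicate 1. Chemokines had 3 of 8 higher and 0 lower with library totals, and 2 higher and 1 lower after centring.

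Interferon-stimulated genes, induced through the interferon receptor, gained H3K27ac with KLA and held less of it with RGFP966. Their 35 promoters had a median KLA response of 1.97 on the log2 scale in DMSO, which with RGFP966 KLA against vehicle was 1.09. The median difference with RGFP966 was -0.89, 33 of 35 promoters lay below both DMSO KLA libraries in both RGFP966 libraries, beside 4824 of 7762 promoters in all. With library totals 10 of 35 (28.6%) were called lower, near the 24.4% of all promoters, and after centring 30 of 35 (85.7%), beside 48.8%. The class changed side of the background when a library was left out. Without DMSO KLA replicate 1 the count was 4 (11.4%), beside 14.9% of all promoters. Without RGFP966 KLA replicate 2 it was 6 (17.1%), beside 19.0%. Without DMSO KLA replicate 2 it was 17 (48.6%), beside 33.6%, and without RGFP966 KLA replicate 1 16 (45.7%), beside 30.2%. Usp18, which removes the ubiquitin-like ISG15, carried 61.5 and 68.9 tags without KLA, 626 and 506 with DMSO KLA and 247 and 196 with RGFP966 KLA (-1.35, SE 0.20, adjusted p = 1.32e-10). Ifit1bl2 rose from 59.8 and 68.0 to 684 and 616 with DMSO KLA and reached 278 and 228 with RGFP966 KLA. Stat2, a transcription factor of the interferon pathway, followed with 95.5 and 97.7, then 481 and 378, then 205 and 161. All 3 genes kept levels above vehicle in both RGFP966 KLA libraries.

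**Figure D4:**
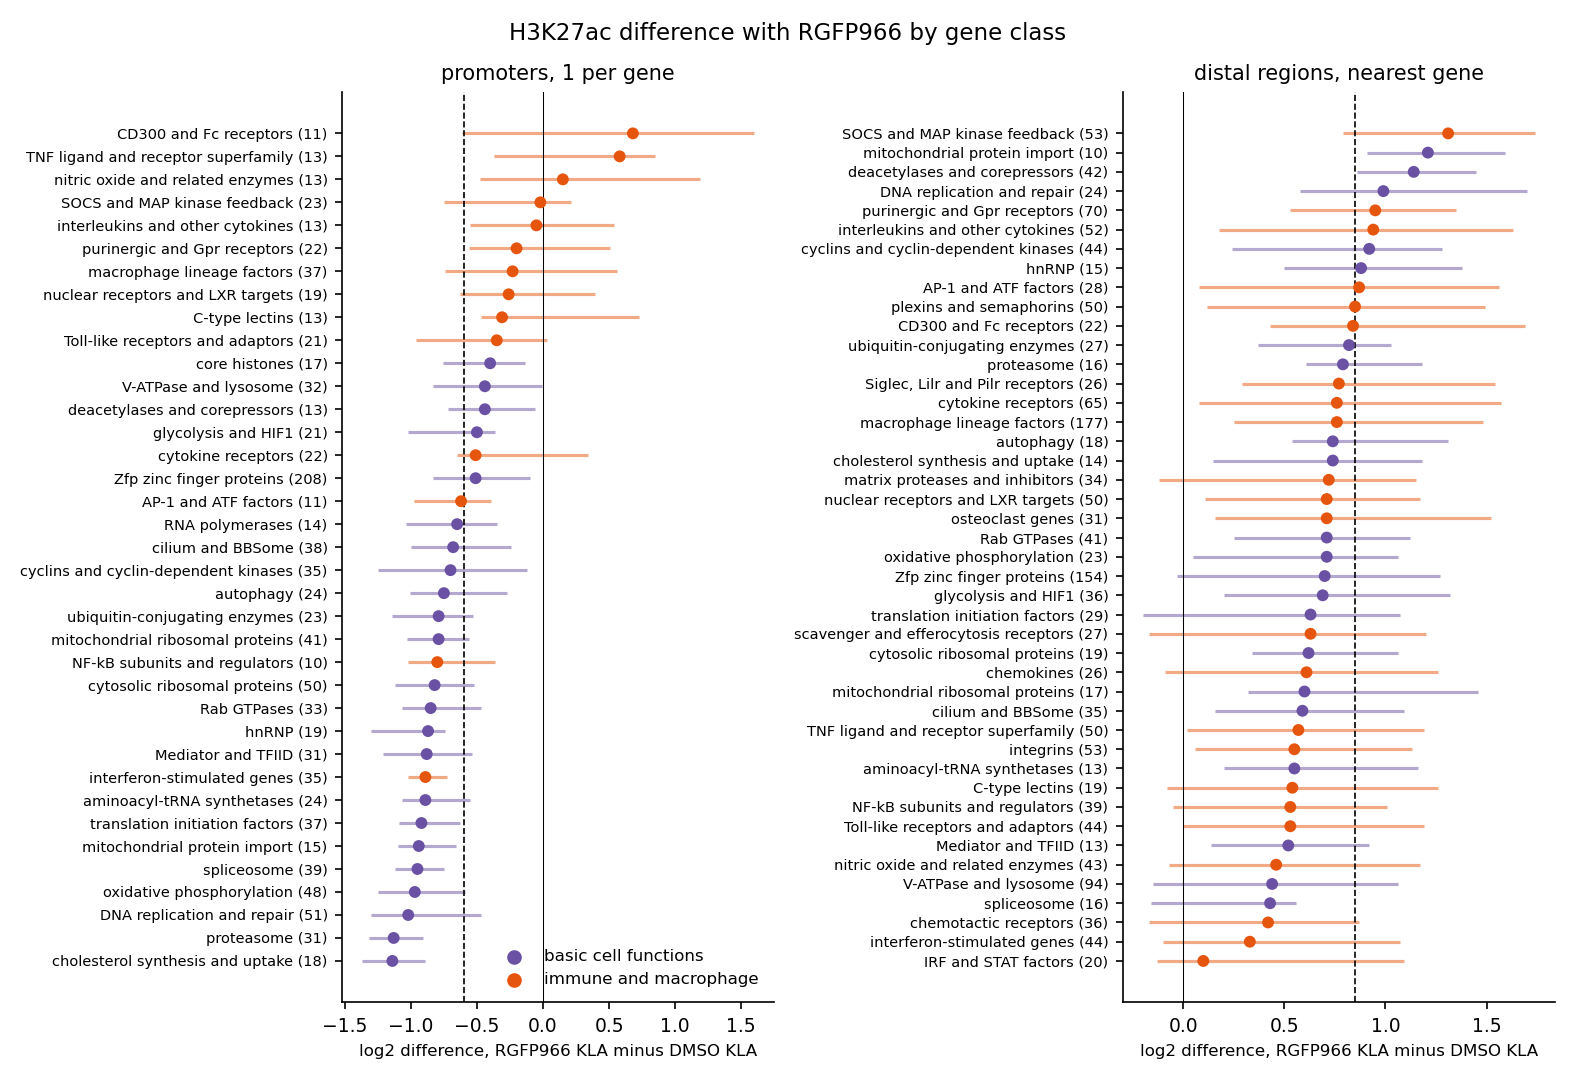
Median log2 difference, RGFP966 KLA minus DMSO KLA, of gene classes with at least 10 regions (numbers in brackets, 1 immune class not shown), for promoters and for distal regions. Lines span the interquartile range of a class and the dashed line is the median of all promoters (-0.60) or all distal regions (0.85).

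Inflammatory loci were compared one by one. The Il6 promoter, of a secreted cytokine, rose from 13.3 and 18.3 tags to 247 and 237 with DMSO KLA and to 121 and 127 with RGFP966 KLA. The difference of -0.97 (SE 0.21, adjusted p = 2.94e-05) fell short of 2-fold with library totals, and Il6 was called lower after centring (-1.35), with TMM by either reference, with DESeq2 size factors and by DESeq2's Wald test. The region nearest to Il1b, at -2437 bases from the TSS, held 399 and 330 tags with DMSO KLA and 309 and 276 with RGFP966 KLA, a difference of -0.32 (SE 0.19, adjusted p = 0.143). Regions nearest to Ccl5 (-0.74, adjusted p = 0.002), Cxcl10 (-0.54, adjusted p = 0.015) and Il12a (-0.22, adjusted p = 0.446) were not called either, and of these only Ccl5 was lower after centring. Il10, an anti-inflammatory cytokine, had 69.3 and 64.0 tags with DMSO KLA and 103 and 91.5 with RGFP966 KLA (0.54, SE 0.24, adjusted p = 0.0391) and was not called. Ptgs2, Cp, Tnf and Nos2 had no tested region.

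The genes of the corepressor itself did not move as 1 group. Ncor1 fell from 299 and 221 to 123 and 91.5 tags at the promoter (-1.28, SE 0.21, adjusted p = 1.72e-08). At Hdac3, the target of the inhibitor, the promoter held 31.1 and 34.5 tags with DMSO KLA and 27.6 and 20.3 with RGFP966 KLA, and the difference of -0.44 (SE 0.32, adjusted p = 0.221) was not called. Ppargc1b, the coactivator PGC1b, stood at 39.5 and 21 against 42.8 and 25.1. Among deacetylases and corepressors 2 of 13 promoters were lower (6 centred), beside 24.4% (48.8%) of all promoters, and 20 of 42 distal regions nearest to such genes were higher (14 centred), beside 40.1% (21.8%) of all distal regions.

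The higher distal regions were led by sites that held less H3K27ac with DMSO KLA than without KLA. The 10 with the smallest p-values lay nearest to Cd300a, 1700027F06Rik, Mmp13, Scgb1a1, Cdc42ep3, Zfp572, Tle4, Ppp1r2, Cd1d1 and Qpct. In all 10 both DMSO KLA libraries lay below the vehicle libraries. That they lay below the RGFP966 KLA libraries follows from the choice by p-value, which also favours low DMSO KLA values beside vehicle. In the Pgc1b flox libraries, which had no part in the choice, the log2 KLA response was 0.4 at Mmp13, 0.01 at Cd1d1 and -0.56 at Qpct. At the rest of the 10 it ran from -4.43 to -2.06. A nearest gene is a label of position, and no link between region and gene was measured.

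The region 13453 bases from the TSS of Cd300a, an inhibitory receptor of myeloid cells, held 220 and 213 tags without KLA, 29.8 and 19.4 with DMSO KLA and 249 and 229 with RGFP966 KLA (3.25, SE 0.26, adjusted p = 2.86e-32). With RGFP966 it stood at the level of unstimulated cells. At 1700027F06Rik the return was partial, since 514 and 456 tags without KLA became 22.7 and 19.4 with DMSO KLA and 197 and 169 with RGFP966 KLA. Near Mmp13, a collagenase, the levels with RGFP966 exceeded all others, at 210 and 200 against 27.2 and 26.1 with DMSO KLA and 72.3 and 68.0 without KLA (2.94, SE 0.26, adjusted p = 1.22e-25). The regions near Tle4, a corepressor of the Groucho family, and Qpct, which forms pyroglutamate at protein ends, had this shape too. Tle4 held 234 and 179 tags with RGFP966 KLA, 31.7 and 32.0 with DMSO KLA and 101 and 106 without KLA.

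Smaller counts stood behind some of the large differences. The region near Cdc42ep3, an effector of Cdc42, had 10 and 9 raw tags with DMSO KLA and 170 and 104 with RGFP966 KLA, or 6.48 and 7.57 against 112 and 70.5 tags per 10 M (3.69, SE 0.34, adjusted p = 1.08e-23). Cd1d1, which presents lipids to NKT cells, had 8 and 18 raw tags against 173 and 134. These low counts are reflected in the wider SE.

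Distal regions were grouped by the class of their nearest gene, and the shares are to be read beside the 40.1% of all distal regions, or the 21.8% after centring. Among classes with at least 10 distal regions, the highest share was at SOCS and MAP kinase feedback genes, the brakes of cytokine and kinase signals, with 33 of 53 higher (23 centred) and a median of 1.31. Interleukins and other cytokines had 24 of 52 (median 0.94), purinergic and Gpr receptors 31 of 70, and macrophage lineage factors 75 of 177. With library totals all of them were near the background. After centring the counts were 17 (32.7%), 17 (24.3%) and 49 (27.7%) in the same order, beside 21.8%. Of the classes with at least 10 distal regions, 16 of 21 basic and 19 of 24 immune ones had a median below that of all distal regions (0.85). Among the lower ones were IRF and STAT factors (0.10, turning to -0.29 after centring), chemotactic receptors (7 of 36 higher) and lysosomal genes (28 of 94). Interferon-stimulated genes were also among them (0.33, and -0.06 centred), with 13 of 44 higher. Without DMSO KLA replicate 2 they had 8 higher (18.6%), beside 34.4% of all distal regions in that setting.

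A few of these regions show the range. Near Dusp22, a phosphatase, 14.1 and 12.2 tags without KLA and 24 and 24.4 with DMSO KLA became 122 and 102 with RGFP966 KLA (2.21, SE 0.28, adjusted p = 9.89e-14), so RGFP966 came with a level that neither other group had. Near Klf2, a Krüppel-like factor of quiescent cells, 236 and 238 tags fell to 12.3 and 17.7 with DMSO KLA and stood at 109 and 104 with RGFP966 KLA. Klf9 went from 125 and 135 to 18.8 and 10.1 and back to 121 and 97.5. The region near Cxcr4, a chemokine receptor, had 7 and 1 raw tags with DMSO KLA and 59 and 58 with RGFP966 KLA (3.71, SE 0.46, adjusted p = 4.86e-14).

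Further cases lay near receptors of the cell surface and an AP-1 gene. Near Cd163, a scavenger receptor, 23.3 and 18.5 tags with DMSO KLA became 138 and 103 (2.51, SE 0.28, adjusted p = 4.16e-17). Near Tlr4, the receptor of KLA, 33.0 and 34.5 became 159 and 110, and near Tnfrsf11a, the receptor RANK, 51.8 and 38.7 became 163 and 156. Near Jun, of the AP-1 family, 60.2 and 40.4 became 257 and 186. In the vehicle libraries Cd163 had 73.9 and 79.4 tags, Tlr4 99.7 and 75.9, Tnfrsf11a 101 and 83.7, and Jun 203 and 201, all above DMSO KLA.

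Distal regions higher with RGFP966 lay nearest to 3461 of the 6639 genes that were nearest to any tested distal region. Of the 3461, 1322 had at least 2 such regions and 11 at least 10. These counts depend on how many regions were tested per gene, and they were not made after centring. Pde4d, a cAMP phosphodiesterase, had 13 of 18 tested regions higher, the zinc finger gene Klf4 12 of 17, Irf2bp2 12 of 16, Pik3r1 12 of 21 and Mef2a 10 of 10. After centring the counts were 11 for Pde4d, 10 for Klf4, 6 for Irf2bp2, 6 for Pik3r1 and 7 for Mef2a. These 5 genes were chosen after their values were seen, and their counts are to be read beside the 40.1% of all distal regions, or 21.8% centred. Of 3214 genes with both a promoter and a distal region tested, 619 had the promoter lower, 1689 had a distal region higher and 227 had both. That is 36.7% of the genes with the promoter lower, beside 52.6% of all 3214, and 13.4% of the genes with a distal region higher, beside 19.3%.

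Exceptions to the direction were few at distal regions and shared a feature with promoters. Of the 104 distal regions that were lower, 33.7% held more than 4 CpG per 100 bp, against 2.85% of distal regions tested, and 25% lay within 1 kb of a RefSeq transcript start, against 5.71%. The 5 with the smallest p-values lay nearest to Cep135, Sod2, Fbrs, Mir5106 and Sfi1. Near Sod2, the mitochondrial superoxide dismutase, 35.7 and 22.7 tags rose to 555 and 466 with DMSO KLA and to 217 and 171 with RGFP966 KLA (-1.39, SE 0.20, adjusted p = 6.37e-11). The window near Cep135 instead held 78.1 and 86.3 tags without KLA, 87.4 and 74.9 with DMSO KLA and 17.1 and 23 with RGFP966 KLA.

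The reverse exception, promoters that were higher, was led by S100a3, 3300005D01Rik, S100a4, Havcr2 and Foxp1. S100a4, a calcium-binding protein, had 218 and 208 tags without KLA, 33.0 and 21.9 with DMSO KLA and 199 and 148 with RGFP966 KLA (2.63, SE 0.26, adjusted p = 2.38e-21). Havcr2, the receptor TIM-3, had 110 and 76.8, then 33.7 and 21, then 157 and 120. Like the distal regions above, both lost H3K27ac with KLA in DMSO. Of the proximal regions that were higher, 23.4% held over 4 CpG per 100 bp, against 74.3% of proximal regions tested and 94.1% of those that were lower.

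CpG density thus went with the difference on both sides of the 2 kb border. Proximal medians went from 0.61 at up to 1 CpG per 100 bp to -0.81 above 8, and distal medians from 0.95 to -0.46. Across regions Pearson's r between CpG density and the difference was -0.45 at 9836 proximal and -0.23 at 15209 distal regions. These regions share the 4 libraries and their base composition, so r is a description. The part of base composition in the difference was not tested.

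Sequence motifs in the middle 300 bp mostly followed the same divide. Proximal regions with the ETS promoter type had a median of -0.86, against -0.54 without it, and those with YY1 -0.86 against -0.55. SP/KLF gave -0.68 against -0.30. The AP-1 motif went the other way at proximal regions, with -0.03 against -0.59, and RUNX as well, with -0.32 against -0.60. At distal regions AP-1 stood at 0.92 against 0.83, RUNX at 0.94 against 0.81 and the ETS/PU.1 core at 0.91 against 0.84. Distal medians were lower with than without SP/KLF (0.54 against 0.87), the ETS promoter type (0.46 against 0.85), NRF1 (0.56 against 0.85) and the E-box (0.63 against 0.86). The letters of these motifs each hold a CpG, so their medians are not separate from CpG density. For YY1 the distal median was 0.85 with and without it.

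Regions with and without a corepressor peak had close medians. Distal regions with an HDAC3 peak within 500 bp, from the HDAC3 ChIP-seq of the same series, had a median of 0.84 and 40.4% higher, and those without 0.91 and 39.3%. At proximal regions the median was -0.57 with and without HDAC3. NCoR gave 0.84 with and 0.89 without a peak at distal regions, and -0.57 on both sides at proximal ones.

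How a region responded to KLA was compared with the difference in libraries that the comparison does not share. The same table of regions was counted in BMDMs of Pgc1b flox mice without Cre, 2 libraries with vehicle and 2 with KLA, where 5.22% of tested regions were higher and 25.6% lower with KLA. This set was added after the data were seen. Distal regions that fell more than 4-fold in these cells (log2 under -2) had a median RGFP966 difference of 1.52, and 73.4% of the 1132 were higher. The median then went down in steps to 0.63 at a KLA response of -0.5 to 0 and to -0.23 above 2.

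Proximal regions behaved alike at the losing end, with a median of 0.91 where KLA took away more than 4-fold, and stayed between -0.65 and -0.80 wherever the response was above 0. Pearson's r between the KLA response of Pgc1b flox cells and the RGFP966 difference was -0.47 over 14621 distal and -0.37 over 9782 proximal regions. In the H3K27ac_WT_KLA and H3K27ac_WT_Veh libraries, from NCoR flox/flox cells and matched by centre within 500 bp, r was -0.40 over 6492 distal and -0.23 over 7477 proximal regions. These r share no library with the KLA response but do share region length, base composition and level.

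**Figure D5:**
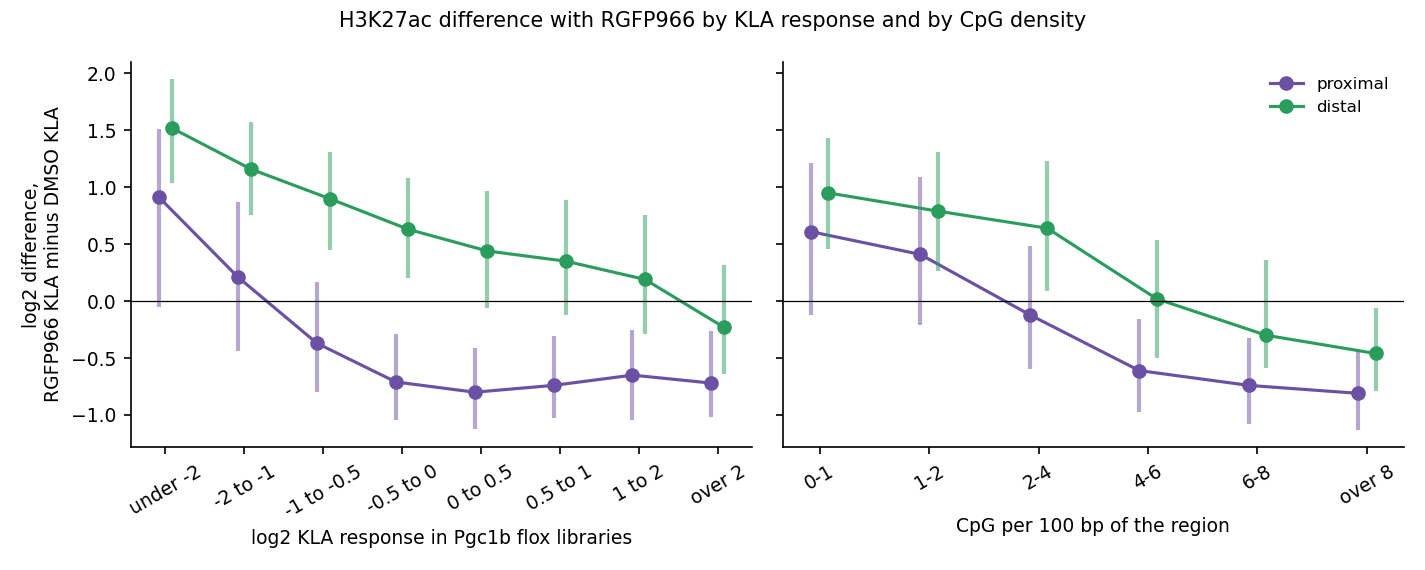
Median log2 difference, RGFP966 KLA minus DMSO KLA, by the KLA response in Pgc1b flox libraries (left) and by CpG density (right), for proximal and distal regions, with bars for the interquartile range. Distal medians go from 1.52 to -0.23 with the KLA response and proximal ones from 0.91 to -0.72.

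Regions that gained H3K27ac with KLA in Pgc1b flox cells were also taken by position. The 319 proximal ones had a median of -0.72 with RGFP966, with 92 lower (28.8%) and 7 higher, beside 2284 of all 9836 proximal regions lower. After centring the median was -1.10, with 180 lower (56.4%) and 5 higher, beside 4615 of all 9836 proximal regions lower. The 977 distal ones had a median of 0.06, with 121 higher (12.4%) and 23 lower (2.35%), beside 40.1% and 0.684% of all distal regions. After centring their median was -0.33, with 48 higher (4.91%) and 139 lower (14.2%), beside 21.8% and 2.94%. Regions that lost the mark went up at both positions, with medians of 1.24 over 4709 distal and 0.28 over 1540 proximal regions, the latter -0.10 after centring.

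The level of a region went along with these groups. It was taken after KLA in the NCoR flox/flox cells, at the 6492 distal and 7477 proximal regions matched to those libraries. Sorted into 5 groups by the level in the H3K27ac_WT_KLA libraries, distal medians went from 1.07 in the lowest group (up to 7.94 tags per 10 M) to -0.17 in the highest (above 48.3), and proximal medians from -0.35 to -0.81. In the highest group, 2.09% of distal regions were higher.

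Beside the vehicle libraries, the comparisons that share libraries read as follows. DMSO KLA against DMSO Veh gave 6.73% of regions higher and 28.1% lower, with medians of -0.17 at proximal and -0.69 at distal regions. RGFP966 KLA against DMSO Veh gave 12.6% higher and 17.9% lower, with medians of -0.73 and 0.13. With library totals the distal median with RGFP966 KLA was therefore close to vehicle, and the proximal median lay below both other groups. The distal median joins unlike groups. Against vehicle it was -0.46 over the 4709 distal regions that lost the mark in Pgc1b flox cells and 1.69 over the 977 that gained it. No centred values were made against vehicle.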

How the data were processed

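The authors aligned ChIP-seq reads to mm10 with Bowtie2 and deposited raw tag counts per region from HOMER, at most 3 tags per position, in windows on ATAC-seq peaks, with each library's total in the file headers. Versions are not given in the sources used here. Formaldehyde alone was the crosslinker for H3K27ac. Counts were tested with edgeR 4.0.16 (R 4.3.3) in 1 fit of the 6 libraries, with library totals as offsets and regions of at least 16 tags in at least 1 library, at an adjusted p under 0.05 (Benjamini-Hochberg) and over 2-fold. DESeq2 1.42.0, TMM, size factors, centring, filters, the 4 libraries alone, a replicate block and left-out libraries were alternatives. In simulated counts 198 of 24376 regions were changed 3-fold and the rest not at all. Of these changes 86.4% were recovered, and 3.39% of calls were false. The simulation had no shift over all regions and a far smaller share of changed regions than was called here. Its share of false calls therefore does not carry over to the calls in the data. The authors describe the ChIP replicates as biological, but with 2 per group p-values rest on a spread shared over regions.

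The reference fitted the build: 29767 of 29767 regions lay on its chromosomes, and TSS distances matched RefSeq within 10 bp at 92.0% of proximal regions that could be compared. Regions named were the loci and markers of a list, the smallest p-values (10 promoters lower, 10 distal regions higher, 5 each of the opposite calls, 1 per gene), and up to 2 of each kind per class. Members, classes and rules were chosen with earlier results of these data known. Pairing by replicate number was checked, and deviations of same-numbered libraries correlated at 0.005 to 0.0255, so the numbers were not treated as pairs. Some named items are not reported here.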

Additional observations from a re-analysis of the deposited data

How the results depend on the processing

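The count of called regions stayed within 1.5 times of its value under all alternatives, from 8212 to 9308, but its split did not. TMM gave 4031 higher and 4742 lower, DESeq2 size factors 4313 and 4463, centring 3679 and 5062 and DESeq2's Wald test 3880 and 4332. TMM with a vehicle library as reference, added after the data were seen, gave 5266 and 3532. Without 1 library the counts ran from 5314 to 7398 higher and from 1477 to 3277 lower, the lowest without DMSO KLA replicate 1. Proximal medians were -0.91, -0.87, -0.95 and -0.87 and distal medians 0.51, 0.55, 0.47 and 0.55 in the order TMM, size factors, centring and Wald test, with 0.67 at distal regions for the vehicle reference. Leaving out a library gave -0.71 to -0.38 and 0.74 to 0.96. The distal share of regions higher was 94.1% and 81.8% with a border at 1 kb and 5 kb and 89.1% to 90.4% without 1 library. The distal share of regions lower was 8.41%, 7.84%, 8.83% and 7.02% under the same 4 scalings and tests and 4.19% to 6.43% without 1 library.

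The replicate block changed no call of a named region and gave 6829 regions higher and 2366 lower, 9195 in all. Signs changed at 4 named regions that were never called: Ppargc1b (-0.2 with TMM, -0.04 with the vehicle reference, -0.16 with size factors, -0.25 centred, -0.15 by the Wald test, and -0.3 to 0.69 without 1 library), Csf1r (-0.22, -0.06, -0.19, -0.27 and -0.18 in the same order, and -0.06 to 0.34 without 1 library), Itgam (-0.27, -0.11, -0.23, -0.31 and -0.23, and -0.06 to 0.23 without 1 library) and Cd68 (-0.24 to 0.25 without 1 library). The causes were not tested. With 2 libraries per group and no spike-in named, a shift of all regions cannot be told apart from the scaling.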
